A study of Mus musculus with 8 samples.

Results

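Cytosolic ribosomal protein genes, which encode the protein subunits of the ribosome that translates nuclear messages, were followed through a knockdown of Zrf1 in differentiating mouse cells. They were taken from the array by gene name: every probe that was no control and carried a name starting with Rpl or Rps and a digit, or the name Rplp0, Rplp1, Rplp2 or Rpsa, without the S6 kinases and the pseudogenes. The rule found 85 genes among the 36373 gene names on the array, 52 named for the large subunit and 33 for the small one, on 185 of 55681 probes. Of the 85 genes, 76 encode subunits, 8 are paralogues of a subunit gene (Rpl39l, Rpl22l1, Rps27l, Rpl36al, Rpl7l1, Rpl10l, Rps4l and Rpl3l), and Rps19bp1 encodes a binding protein of Rps19 that only shares the name. In all, 84 genes and 183 probes were bright enough to be tested. The exception among the genes was Rpl3l, the paralogue of Rpl3 known from heart and skeletal muscle.

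The cells were mouse embryonic stem cells taken through a neural induction to radial-glia-like neural progenitor cells and collected on day 6. In the control group they carried a control short hairpin RNA (shCtrl), and in the knockdown group a hairpin against Zrf1 (shZrf1), a gene whose current symbol is Dnajc2. Each group had 4 samples, and each sample was hybridised alone, with a Cy3 label, to an Agilent array with probes of 60 bases. The labels do not say whether the 4 samples of a group came from separate cultures or how many clones or hairpins were used, so p-values measure only the spread between these samples. The scanner files number the 4 knockdown arrays with only 2 numbers, knockdown 1 with 2 and knockdown 3 with 4, and mark the second of each pair TR, which the labels do not explain. If TR stands for a technical repeat, the knockdown group holds 2 independent samples, not the 4 behind each SE and exact p given here. With each pair averaged, 47 ribosomal protein genes were called higher and 1 lower, in place of 55 and 1. Of all tested genes, 24.9% were then called higher and 25.4% lower. Across all tested genes the deviations from the group mean correlated at -0.32 and -0.40 within those number pairs, against -0.52 to -0.01 between the other knockdown arrays. Each number pair was split over different slides, and the highest value, -0.01, was that of knockdown 2 and 3, which shared slide 2. These correlations therefore cannot tell whether the TR arrays are repeats.

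A ribosome joins a small subunit, which holds the mRNA and reads its codons, to a large subunit, which forms the peptide bonds and releases the growing chain through an exit tunnel. The subunit proteins are made in nearly equal numbers, and their mRNAs, which start with a run of pyrimidines, are among the most abundant of a growing cell. Some subunit genes have paralogues that are switched on in testis, muscle or other tissues and can take the parent's place in the ribosome. The Zrf1 protein is itself a ribosome-associated chaperone partner that sits near the exit of the tunnel, and it is also known to bind ubiquitylated histone H2A.

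The array told paralogue from parent by probes with little in common. The probes that stood for the pairs discussed first are shown here in lower case, 5′ to 3′, with the longest run of bases shared by the 2 probes of a pair in capitals. That of Rpl39 is whole, and the others are stretches of 30 bases.
Rpl39: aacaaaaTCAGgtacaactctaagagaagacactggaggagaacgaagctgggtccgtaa
Rpl39l: ttagtgagttcatTCAGcagttcagtaata
Rpl22: gGAGGAagacgaggattaggacacattggt
Rpl22l1: cagagtctGAGGActaattggcctctgctt
The shared runs were 4 bases for Rpl39l and Rpl39 and 5 bases for Rpl22l1 and Rpl22, and over all probes of the 7 parents of tested paralogues no run shared with the paralogue's probe was longer than 8 bases. No probe of the 185 had the sequence of another probe on the array. In the files' mm9 coordinates, the Rpl39 probe lies at chrX:34622696-34623990 on the minus strand, a span longer than the probe. The Rpl39l probe is at chr16:10174657-10174716, the Rpl22 probe at chr4:151706515-151706574 and the Rpl22l1 probe at chr3:28706237-28706296, all on the plus strand.

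The start regions of these genes were read from RefSeq's GRCm38.p6 promoters, which covered 56 of the 76 subunit genes and 7 of the 8 paralogues. The windows from 30 bases before to 30 after the start are shown for the pair with the largest difference in change, Rpl39 and Rpl39l, and for that with the smallest, Rps27 and Rps27l. Capitals mark CTTTC, a pyrimidine run of the kind found at the starts of these genes, and CCGGAAG or its reverse complement, the core to which ETS factors bind.
Rpl39: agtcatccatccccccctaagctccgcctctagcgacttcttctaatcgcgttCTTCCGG
Rpl39l: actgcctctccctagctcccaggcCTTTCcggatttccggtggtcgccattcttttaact
Rps27: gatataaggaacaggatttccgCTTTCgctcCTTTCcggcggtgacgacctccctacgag
Rps27l: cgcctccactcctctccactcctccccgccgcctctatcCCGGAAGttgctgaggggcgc
These windows lie at chrX:37085193-37085252 (minus strand), chr16:10170198-10170257 (plus), chr3:90213619-90213678 (minus) and chr9:66946056-66946115 (plus, the first of the starts listed for Rps27l). Within 50 bases of the start, CTTTC on the gene's strand was present in 34 of 66 windows of subunit genes (51.5%), in 2 of 9 windows of the paralogues (22.2%) and in 12.8% of all 32851 promoters. CCGGAAG on either strand was found in 37.9% of the subunit windows from 250 bases before to 50 after the start, against 8.86% of all promoters. AAGATGGC, the core bound by YY1, was found on either strand in 10.6% and 2.75%. Rpl39l carried both CTTTC and CCGGAAG in its full window. These are matches of letters only.

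Values are on a log2 scale on which 0 is the brightness of the array's 75th percentile, and a change is the knockdown mean minus the control mean with its standard error (SE, 4 arrays against 4). Between 53.4% and 60.3% of the spots of an array were well above background, and none was saturated. The targeted gene, Dnajc2, lay between 1.75 and 2.02 on the control arrays and between -2.53 and -2.08 on the knockdown arrays, a change of -4.19 (SE 0.12, limma adjusted p = 1.14e-07). All 8 markers of neural progenitors listed were well above background on every control array. Their summed signal fell in multiples of the percentile from between 98.95 and 109.1 in control to between 24.2 and 25.8 in knockdown, with 7 of 8 called lower and Fabp7 not well above background on the 4 knockdown arrays. The 6 endoderm markers summed to between 1.48 and 1.74 in control and between 8.88 and 9.72 in knockdown, with 6 of 6 called higher and Afp not well above background on the 4 control arrays. The 4 fibroblast or feeder markers summed to between 30.6 and 33.5 in control and between 102.5 and 128.8 in knockdown, with 3 called higher. Most of that sum was Tagln, which changed by 1.90, and Col1a2, at 0.082, was not called. The 4 pluripotency markers summed to between 52.8 and 58.3 in control and between 18.4 and 20.4 in knockdown, with 3 called lower. The 4 neuron markers summed to between 6.72 and 8.51 in control and between 9.36 and 10.3 in knockdown, with 2 called lower and 1 higher. Only Stmn2 rose (2.25), while Tubb3 (-2.91) and Dcx (-2.70) were called lower and Elavl3 (-0.34) was not called. In such bulk RNA, fewer cells of a type and less RNA per cell cannot be told apart, and the part of these shifts in the ribosomal values was not tested.

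Most ribosomal protein genes were modestly higher after knockdown, as a block, in the 75th percentile scaling. Of the 84 tested, 55 were called higher and 1, Rpl39l, lower at a limma adjusted p under 0.05, and 28 were not called. Among all 21752 tested genes, 29.3% were called higher and 28.7% lower, and 58% either way. The median change of the ribosomal protein genes was 0.28, against 0.044 over all tested genes. The changes were small and alike: 96.4% of the members moved by less than 0.5 in either direction, against 56.4% of all genes, and the standard deviation of the changes was 0.19 against 0.88. The knockdown and control arrays did not overlap for 45 of the 84 genes, 44 of them higher in knockdown, against 55% of all genes, 27.7% higher. Within slides the median was 0.36 on slide 1 and 0.40 on slide 3, each with 1 array a group, and 0.18 on slide 2, which held 2 of each. With knockdown 3 and 4 left out 19 were called higher, against 24.7% of all genes, and with slide 2 alone 3 were, against 21.7%. Without control 3, Rpl21 was called lower as well.

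**Figure D1:**
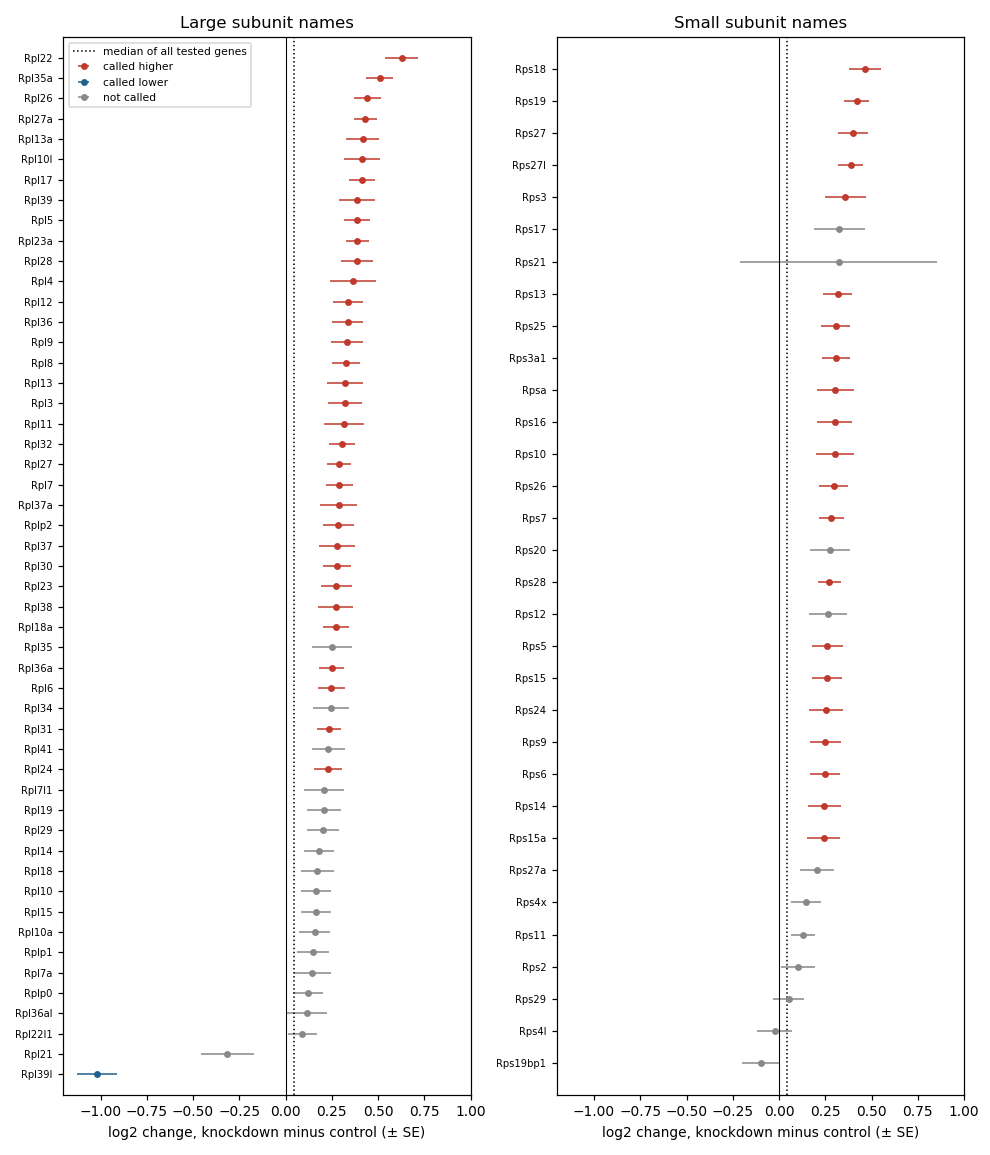
Change of the tested ribosomal protein genes shown, knockdown minus control, on the log2 scale (points, with the SE of 4 arrays against 4), with large subunit names on the left and small subunit names on the right. Nearly all points lie between 0 and 0.5, Rpl22 is at the top with 0.63, and Rpl39l stands alone at -1.02.

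How many of these genes were called depended on the scaling of the arrays. With each array scaled to its median in place of the 75th percentile, 2 were called higher (Rpl22 and Rpl35a) and 2 lower (Rpl39l and Rpl21), against 19.1% and 32.1% of all genes, and 37.3% of all calls were higher in place of 50.5%. That scaling moved the median of all genes to -0.13 and of the ribosomal protein genes to 0.11. The distance between them stayed at 0.23, as it had to, because such a scaling shifts all genes of an array by the same amount. Only a normalization that treats genes unequally could change it. Under quantile normalization the distance was 0.067, with 19 called higher and 2 lower, and in the authors' deposited log2 values it was 0.075, with 20 and 3. The members called higher were thus 22.6% and 23.8%, below the 29% of all genes called higher in both. Of all genes, 28.1% were called lower in each. With the percentile taken over probes above background on all 8 arrays, 75 were called higher, against 35.1% of all genes. Rpl39l, Rpl22 and Rpl35a kept their direction and call in all 24 alternatives tried, and no other of the 29 called members named here did.

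**Figure D2:**
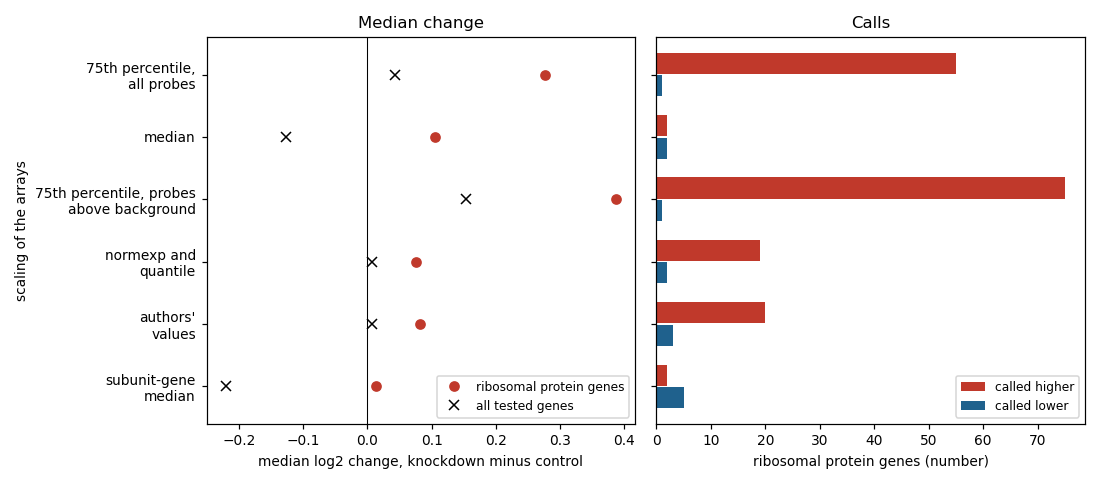
Effect of the scaling between arrays. Left, the median log2 change of the 84 ribosomal protein genes (circles) and of all tested genes (crosses) under each scaling; right, the number of ribosomal protein genes called higher or lower, which ranged from 2 to 75 for higher and from 1 to 5 for lower.

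Array by array, the subunit genes were low on every control array and higher on every knockdown array. Taking each gene's deviation from its mean over the 8 arrays, the median over the 76 subunit genes was -0.20, -0.089, -0.17 and -0.098 on control arrays 1 to 4. It was 0.27, -0.0097, 0.10 and 0.18 on knockdown arrays 1 to 4. The groups did not overlap, and knockdown 2 was nearest to the controls. The corresponding medians of all tested genes lay between -0.031 and 0.069. The 185 ribosomal probes took 13.12% ± 0.30 (SD, n = 4) of the summed intensity of a control array and 15.01% ± 0.46 (SD, n = 4) of that of a knockdown array. Such a share scales each array to its own summed signal, so it also depends on the other bright probes. All control shares lay between 12.7% and 13.4%, and all knockdown shares between 14.4% and 15.4%.

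**Figure D3:**
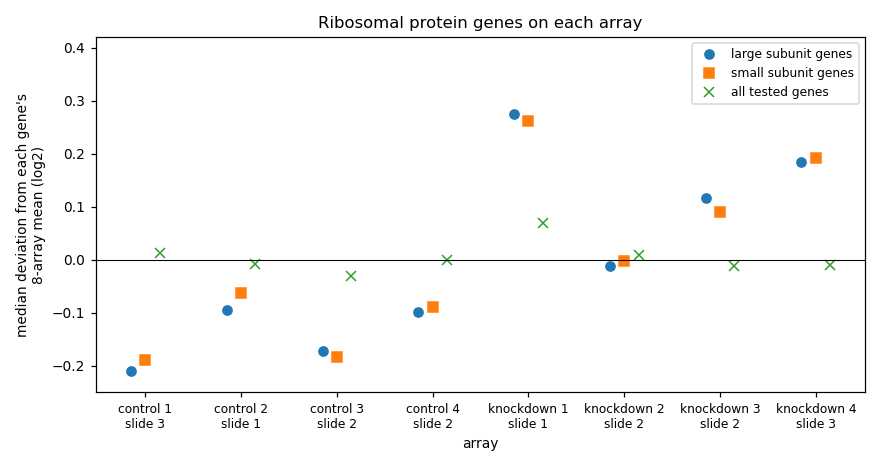
Median deviation of large subunit genes, small subunit genes and all tested genes from each gene's 8-array mean (log2), on each array. The large and small subunit medians move together from array to array, between -0.21 and -0.062 on the 4 control arrays and between -0.012 and 0.28 on the 4 knockdown arrays.

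Large and small subunit genes changed by nearly the same amount. The median change was 0.28 for the 51 tested large subunit names (33 higher, 1 lower) and 0.28 for the 33 small subunit names (22 higher, none lower), a difference of 0.0013. Without paralogues and Rps19bp1 it was 0.28 over 46 genes and 0.28 over 30. The middle of the distribution was narrower in the small subunit, with quartiles of 0.25 and 0.31 against 0.23 and 0.34. On single arrays the large minus small difference of the medians lay between -0.033 and 0.026. Of the subunit genes outside the name rule, Fau (0.34, SE 0.10), which encodes a fusion of a subunit with a ubiquitin-like protein, and Rack1 (0.29, SE 0.09), the scaffold on the small subunit's head, were both called higher in limma, with adjusted p = 0.0174 and 0.0274.

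The largest rises outside the paralogue pairs were in Rpl35a, Rps18, Rpl26, Rpl27a, Rps19, Rpl13a, Rpl17 and Rpl5. Rpl35a, a large subunit protein mutated in some patients with Diamond-Blackfan anaemia, read 8.07, 8.19, 8.12 and 8.22 on the control arrays and 8.81, 8.59, 8.57 and 8.66 on the knockdown arrays. Every knockdown array was above every control array, and the change was 0.51 (SE 0.07, limma adjusted p = 0.000446), or 1.42-fold. Rps18, at the subunit interface of the small subunit's head, rose from 8.32, 8.41, 8.32 and 8.47 to 9.03, 8.77, 8.70 and 8.86. Its change of 0.46 (SE 0.09) was the largest of the small subunit, again with no overlap between groups. The other 6 changed by 0.39 to 0.44, and none of them overlapped between the groups. No member outside the pairs was called lower.

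By place in the ribosome, genes of the exit tunnel and its rim had the highest median of the 6 lists drawn up. Of 11 such genes, 9 rose, with a median of 0.37, next to 0.35 for the 2 genes that travel with the 5S RNA. The smallest p among the 11 belonged to Rpl22, Rpl26 (0.44, SE 0.07) and Rpl23a (0.39, SE 0.06), the docking site of factors at the tunnel exit. The lists were drawn up with earlier results of these data known, and differences between them were not tested. Of the 4 proteins of the stalk, which recruits translation factors, 2 rose and 2 were not called, with a median of 0.22. Rpl12 (0.34, SE 0.08) and Rplp2 (0.29, SE 0.08) rose, and Rplp1, at 0.15 (SE 0.09), was among those that did not pass the test. Rpl5 (0.39, SE 0.07) and Rpl11 (0.32, SE 0.11), which travel with the 5S RNA and can hold back Mdm2, both rose, with limma adjusted p = 0.00175 and 0.0344. The groups overlapped for Rpl11, with the highest control array at 9.46 and knockdown 2 at 9.46.

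In the small subunit, 7 of 7 genes at the mRNA exit and platform rose, with a median of 0.28. Among them were Rps27 (0.40, SE 0.08), Rps28 (0.27, SE 0.06) and Rps7 (0.28, SE 0.07). At the mRNA entry and head, 4 of 8 rose, with a median of 0.27, and the smallest p belonged to Rps19 (0.42, SE 0.07), Rps3 (0.36, SE 0.11) and Rps15 (0.26, SE 0.08). Across both subunits, 13 of 18 genes mutated in Diamond-Blackfan anaemia rose, with a median of 0.29, and none fell. These lists overlap and are parts of the ribosomal set, of which 65.5% was called higher with a median of 0.28. Each is a description beside that share and the 29.3% of all genes called higher.

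Rpl39l was the exception of the set, on 1 dim probe (mean 1560 intensity units). It encodes a paralogue of Rpl39, a very small protein that lines the exit tunnel, and is known for its high level in testis. Its signal was 1.61, 1.64, 2.04 and 1.78 on the control arrays and 0.77, 0.67, 0.88 and 0.67 on the knockdown arrays. The groups were far apart, and the change of -1.02 (SE 0.11, limma adjusted p = 7.65e-05) was a 2.03-fold fall. Of the 11 ribosomal probes between 1000 and 10000 units, 5 were called lower, that of Rpl39l included, against 28.1% of all tested probes of any brightness. Rpl39 read 7.84, 7.90, 8.15 and 8.07 on the control arrays and 8.57, 8.35, 8.31 and 8.29 on the knockdown arrays, each knockdown value above each control value. It rose by 0.39 (SE 0.10, limma adjusted p = 0.00911). A second bright probe of Rpl39 changed by 0.38, and a dim one (mean 511 intensity units) by 0.21, which was not called. Paralogue minus parent therefore differed by -1.41 (SE 0.09) between the groups, by -1.35 to -1.54 within the 3 slides and by -1.48 to -1.11 over 20 alternatives.

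Rpl22 and Rpl22l1 also parted, with the parent on the higher side. Rpl22, an RNA-binding protein on the outside of the large subunit, read 7.98, 8.16, 8.21 and 8.15 in control and 8.81, 8.57, 8.75 and 8.89 in knockdown. Its change of 0.63 (SE 0.09, limma adjusted p = 0.000404) was the largest rise of all 84 members. Its second, dimmer probe at chr4:151708012-151708071 changed by 0.99 (SE 0.07) and showed no overlap either. Rpl22l1, whose mRNA the Rpl22 protein is known to hold down in other cells, read 8.19, 8.37, 8.35 and 8.38 in control and 8.56, 8.31, 8.35 and 8.43 in knockdown. These values overlapped, and the change of 0.092 (SE 0.079, limma adjusted p = 0.361) did not pass the test. Paralogue minus parent differed by -0.54 (SE 0.06), with no overlap of groups and -0.45 to -0.67 within the slides.

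Each of the 7 tested pairs was compared by an exact two-sided permutation test of the paralogue-minus-parent difference over the 8 arrays. For both Rpl39l and Rpl22l1 the exact p was 0.0286, the smallest that 4 arrays against 4 can give, and 0.1 after Benjamini-Hochberg adjustment over the 7 pairs, so no pair passed. Rps27l, a p53-responsive paralogue, and Rps27 rose side by side, by 0.39 (SE 0.07) and 0.40 (SE 0.08), and their difference was -0.012 (SE 0.054, exact permutation p = 0.8). Rpl10l, an autosomal copy of the X-linked Rpl10 known from testis, rose by 0.41 (SE 0.10), and Rpl10 changed by 0.17 (SE 0.08), which did not pass the test. Their difference of 0.25 (SE 0.12) had an exact permutation p of 0.114.

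For the other 3 tested pairs the paralogue did not pass the test. Rpl36al changed by 0.12 (SE 0.11) beside Rpl36a, which rose by 0.25 (SE 0.07), and Rpl7l1 by 0.21 (SE 0.11) beside Rpl7, which rose by 0.29 (SE 0.07). Rps4l, for which the array's accession is a non-coding RNA, changed by -0.023 (SE 0.095) beside Rps4x at 0.15 (SE 0.08). The differences were -0.13 (SE 0.10), -0.082 (SE 0.14) and -0.17 (SE 0.08), with exact permutation p of 0.229, 0.714 and 0.114. The last paralogue, Rpl3l, was well above background on 3 of 4 control arrays and on no knockdown array, and it was not tested. Each knockdown array was set to its lowest signal well above background, since Rpl3l itself read lower on all of them. Its knockdown mean was then 1.64-fold below its control mean, with control 2 at its own dim reading. That figure is approximate and no strict limit, as all readings of Rpl3l lay near background. Its parent Rpl3 rose by 0.32 (SE 0.09).

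**Figure D4:**
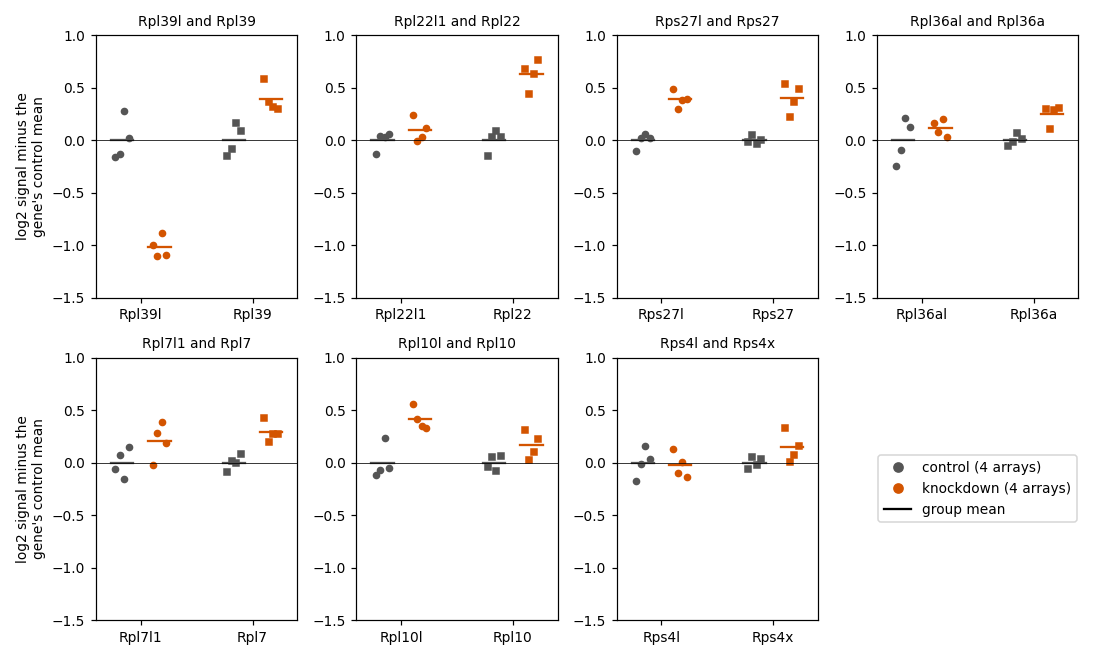
Signal of each paralogue and parent on each array, as log2 signal minus the gene's own control mean, with control arrays in grey and knockdown arrays in orange and bars at group means. Rpl39l lies about 1 log2 unit below 0 in knockdown while Rpl39 lies above it, Rpl22 rises away from Rpl22l1, and Rps27l and Rps27 move together.

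The subunit genes that did not follow the block were few. Rpl21 stood for the gene with a dim probe (mean 738 intensity units) and changed by -0.31 (SE 0.14, limma adjusted p = 0.0948), while its other probe, still dimmer, changed by -0.47 (SE 0.09) and was called lower. Rps29 changed by 0.053 (SE 0.084), and its other probes by 0.045 and 0.048. These lie only 54 and 18 bases from the standing probe, so they read nearly the same stretch and are no independent check. The array places the standing probe on chromosome 2, while RefSeq's table has the gene on chromosome 12. Rps19bp1, no subunit, changed by -0.098 (SE 0.10). When each array was centred on the median of the subunit genes, 5 of the 84 were called lower (Rpl39l, Rpl21, Rps19bp1, Rps4l and Rps29) and 2 higher (Rpl22 and Rpl35a). In that scaling 38.8% of all genes were called lower and 17.6% higher, and the median of all genes was -0.22. Rpl21, Rps29 and Rps19bp1 were named after their values were seen.

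Different probes of a gene mostly moved alike. Of 55 genes with over 1 tested probe, 43 had probes of a single sign, and 4 had probes called in opposite directions, among them Rpl30, Rps15a and Rps6. A shared sign is no independent check, as most ribosomal probes rose and some probes of a gene nearly coincide. Rpl36a, Rpl7 and Rps27, for example, have probes only 5, 6 and 8 bases from the standing one. Over all 183 probes 108 were called higher and 8 lower, against 29% and 28.1% of all tested probes, 57.1% of which were called either way. Called-lower probes were all below 10000 intensity units: 3 of 9 under 1000 units and 5 of 11 between 1000 and 10000, and none of the 27 between 10000 and 100000 or the 136 above that. In the brightest class 98 of 136 were higher, with a median change of 0.28. The ribosomal probes are among the brightest on the array: 75 of the 84 genes were read above 100000 units, up to 542681, where the brightest spot of any kind reached 576708.5 to 659769.8 units.

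**Figure D5:**
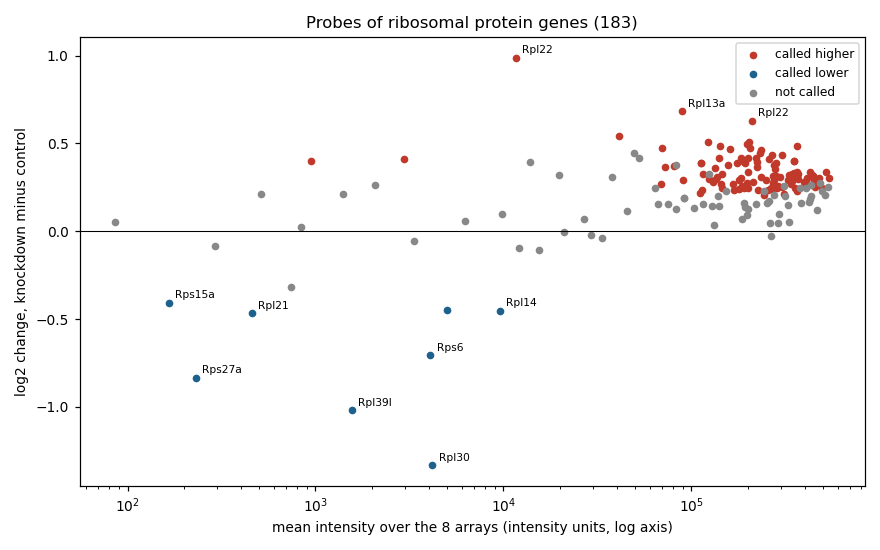
Change of each of the 183 tested ribosomal probes against its mean intensity on a log axis. The bright probes on the right cluster around 0.28, and the 8 probes called lower, most of them named by gene, all lie below 10000 intensity units.

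Rpl30, a small protein at the subunit interface, shows the split most clearly. Its standing probe and its outlying probe are printed as above, the latter as a stretch of 30 bases.
Rpl30 standing probe: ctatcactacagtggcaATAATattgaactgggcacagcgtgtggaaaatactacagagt
Rpl30 outlying probe: acgctctggattATAATcctctcttctgtc
The standing probe at chr15:34371013-34371072 (mm9, minus strand) read 8.11, 8.24, 8.23 and 8.31 in control and 8.66, 8.42, 8.43 and 8.49 in knockdown, a change of 0.28 (SE 0.08), and a second probe changed by 0.30. The outlying probe at chr15:34372831-34372890, which lies 1818 bases towards the 5′ end of the gene, carries the accession of another transcript of the gene. It read 3.29, 3.36, 3.21 and 3.32 in control and 2.02, 1.90, 1.93 and 1.99 in knockdown. That change of -1.33 (SE 0.06, limma adjusted p = 1.13e-06 over all probes) was the largest fall of any ribosomal probe.

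The dim outlying probes of the other genes lay to either side. That of Rps27a (-0.83) is 2025 bases towards the 5′ end from the standing probe, and those of Rps6 (-0.71), Rps15a (-0.41) and Rpl14 (-0.45) are 685, 4322 and 202 bases towards the 3′ end. The brighter probes of Rps6 and Rps15a changed by 0.24 to 0.29. Whether these dim probes detect the spliced mRNA was not tested.

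Genes that serve the ribosome from outside gave mixed counts, and their difference from the subunit genes was not tested. Of 10 dedicated chaperones and transport partners of ribosomal proteins, 7 were called lower and none higher, with a median of -0.37, against 28.7% of all tested genes lower and 29.3% higher. The lowest p among them belonged to Grwd1 (-0.97, SE 0.06), a chaperone of Rpl3, Rrs1 (-0.90, SE 0.06), which loads the 5S particle, and Aamp (-0.51, SE 0.07), the counterpart of the yeast chaperone Sqt1. Of 14 mRNAs that carry the same pyrimidine start but encode other proteins, 4 rose and 3 fell, with a median of 0.14, shares near those of all genes. The translation factors Eif4b (0.79, SE 0.08) and Eef2 (0.52, SE 0.07) rose, and the histone chaperone Nap1l1 (-0.46, SE 0.05) fell. Of 77 tested proteins of the mitochondrial ribosome, 35 fell and 14 rose, with a median of -0.18, beside the 28.7% and 29.3% of all genes. Examples were Mrpl3 (-0.97, SE 0.07), Mrpl46 (-0.75, SE 0.06) and Mrpl24 (0.92, SE 0.06).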

How the data were processed

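Agilent Feature Extraction 10.7.3.1 made the deposited scanner intensity values per the file headers: background-subtracted and detrended within each array, with no scaling between arrays. From these, outlier spots were left out, spots of a probe averaged, and signals put on a log2 scale with the 75th percentile of each array at 0. Probes well above background on every array of at least 1 group were tested, and the brightest tested probe stood for its gene. Probe positions are mm9 as deposited; an annotation of that build was not used here. limma 3.58.1 in R 4.3.3 (lmFit, eBayes) was fitted to all 21752 genes, with Benjamini-Hochberg adjustment and a threshold of 0.05, and was tested on simulated data. The authors' deposited table holds log2 values whose making is not stated; it was an alternative, as were other scalings, filters, probe rules, blocks and left-out arrays. Depth does not apply to arrays; their number, 8, limits precision. Members, gene lists and pairs were chosen with earlier results of these data known. Genes named in the text are the targeted gene, all pairs, the 8 largest other called rises and falls, genes with opposing probes, and up to 3 per list by smallest p; Rpl21, Rps29, Rps19bp1 and Rps21 were added after their values were seen. Some genes of the lists are not reported here.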

Additional observations from a re-analysis of the deposited data

Results flagged for a closer look

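Among the 106 groups of 4 arrays examined, 2 for each named gene, 3 held an array apart from its group by Dixon's test, where chance alone flags about 1 in 20. Rpl22l1 read 8.19 on control 1, against 8.35 on the nearest of the other control arrays. Rpl36a read 7.91 on knockdown 2, against 8.08 on the nearest. Rrs1 read 1.96 on knockdown 1, against 2.10 on the nearest.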

How the results depend on the processing

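The counts followed the scaling. With median scaling 2 members were called higher and 2 lower, and the large and small subunit medians were 0.11 and 0.10. They were 0.39 and 0.39 with the percentile over probes above background on all 8 arrays. Quantile normalization gave 19 higher, 2 lower and medians of 0.078 and 0.069, and the authors' deposited values 20, 3, 0.083 and 0.075. In both, 29% of all genes were called higher and 28.1% lower. Slide 2 alone gave 3 higher, with medians of 0.18 and 0.17 and -0.0060 for Rps21, and no filter on dim probes 33 higher and 2 lower. Of all genes, 21.7% were called higher with slide 2 alone and 16.7% with no filter. At a threshold of 0.01, 26 were higher, against 23.1% of all genes. The mean of a gene's probes gave 3 lower, the probe with the median change 2, and the set without paralogues and Rps19bp1 0. Of all genes, 28.4%, 29.2% and 28.7% were called lower in that order. Deviations of same-numbered control and knockdown arrays correlated with r of 0.12, -0.12, 0.13 and -0.20. Of these, only the arrays numbered 3 shared a slide, so the values cannot decide whether the numbers pair the samples. With the replicate block 28 were called higher, against 26.5% of all genes. Averaging the knockdown number pairs gave 47 higher and 1 lower, against 24.9% and 25.4% of all genes. Leaving out 1 array at a time gave 37 to 63 higher and 1 to 2 lower (2 without control 3). Of all genes, 26.9% to 29% were then called higher and 26.7% to 28.6% lower. The large subunit medians were 0.24 to 0.32, the small ones 0.23 to 0.32 and the differences 0.0014 to 0.018.

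Chosen after seeing the data, centring on the subunit genes gave 2 higher and 5 lower. Leaving out knockdown 3 and 4, also chosen then, gave 19 higher, against 24.7% of all genes. For the latter the cause was not tested.

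Of the 29 called members named, 24 kept their direction in every alternative; the others were Rpl36a, Rpl30, Rps15a, Rps6 and Rps15. For pairs, quantile normalization gave 0.15 (Rps27l), 0.045 (Rpl36al), 0.22 (Rpl7l1) and 0.080 (Rps4l), the authors' values 0.13, 0.0086, 0.21 and 0.027 in that order, and slide 2 alone 0.15 for Rpl7l1. For genes, median scaling gave -0.080 for Rpl22l1, -0.056 for Rpl36al, -0.0054 for Rpl10, -0.026 for Rps4x, -0.024 for Rplp1 and -0.12 for Rps29. The percentile over bright probes gave 0.087 for Rps4l and 0.012 for Rps19bp1. Quantile normalization and the authors' values gave -0.055 and -0.058 for Rpl22l1, 0.13 and 0.12 for Rps4l, -0.011 and -0.016 for Rpl10, -0.017 and -0.018 for Rps15a, -0.069 and -0.073 for Rplp1, and -0.17 and -0.18 for Rps29, both called lower (limma adjusted p = 0.0189 and 0.0156). The mean of probes gave -0.25 for Rpl30, called lower (limma adjusted p = 0.00755), and -0.055 for Rps6. Slide 2 gave -0.035 for Rpl22l1, -0.031 for Rpl36al and -0.068 for Rps29. Centring on the subunit genes gave -0.17 for Rpl22l1, -0.15 for Rpl36al, -0.055 for Rpl7l1, -0.016 for Rpl36a, -0.023 for Rps15a, -0.015 for Rps6, -0.098 for Rpl10, -0.12 for Rps4x and Rplp1, -0.0067 for Rps15 and -0.21 for Rps29. Rps4l ranged from -0.083 to 0.030 over single arrays left out, and without knockdown 3 and 4 it was 0.019 and Rps19bp1 0.045. Dim signal left Rpl3l untested, with only an approximate fold.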

Other observations

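A few ribosomal probes followed the slide rather than the group. Of the 183 tested probes, 4 had slide means that spread over more than 1 log2 unit, 1 each of Rpl13, Rpl17, Rpl7a and Rps21, against 3.78% of all tested probes. The spread was 1.92 for the Rpl17 probe, 1.90 for that of Rpl7a, 1.504 for that of Rps21 and 1.18 for that of Rpl13. Only for Rps21, a small subunit protein with a single tested probe, did this touch the value of the gene. Rps21 read 3.79, 3.78, 5.76 and 5.35 on control arrays 1 to 4, and the 2 high arrays were those on slide 2. It read 4.57, 5.51, 5.58 and 4.30 on the knockdown arrays, where the 2 on slide 2 were again high. Its change was 0.32 (SE 0.53) over all arrays and -0.0060 within slide 2.

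The array places 12 ribosomal probes of 6 genes on another chromosome than the gene in RefSeq's table, and such probes stood for Rps27 and Rps29. With only genes whose standing probe lies on the gene's own chromosome, 54 of 82 were called higher and 1 lower. Of all genes, 29.3% were called higher and 28.7% lower.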
